A study of Mus musculus with 8 samples.

Results

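Genes of the Hippo pathway and of the YAP response, 10 in all, were followed through 8 RNA libraries of mouse E14 embryonic stem cells, 4 with Cct7 or Cct5 knocked down and 4 controls. They are the YAP targets Ccn1, Ccn2 and Ankrd1, the targets and feedback inhibitors Amotl2 and Lats2, the kinase antagonist Ajuba, the coactivator genes Yap1 and Wwtr1, and the DNA-binding partner genes Tead1 and Tead4. They were chosen by name, with earlier results of these data known, and make up 10 of the 19896 genes present in both deposited tables. Cct7 and Cct5 encode subunits of CCT (TRiC), a chaperonin whose best-known clients are actin and tubulin.

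The 4 groups hold 2 libraries each. Cct7 KD cells were infected with virus carrying a doxycycline-inducible pLKO-Tet-On short hairpin against Cct7, and Cct7 KD Ctr cells with the same vector without a hairpin. Cct5 KD cells carried a hairpin against Cct5, and Cct5 KD Ctr cells were their empty-vector control. Selection with 0.5 µg/ml puromycin lasted 14 days in all 4 groups, which then all received 2 µg/ml doxycycline over 2 days, mainly in serum with LIF. Positive clones were picked after selection, and how many clones a line represents is not given, nor whether the 2 libraries of a group are separate cultures. Every p-value therefore measures only the spread between libraries, which may be technical.

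The Hippo pathway is a kinase cascade that limits growth. The kinases MST1 and MST2, with the scaffold SAV1, activate LATS1 and LATS2, which phosphorylate the coactivators YAP and TAZ and so keep them out of the nucleus. When the cascade is off, YAP and TAZ bind TEAD factors on DNA and switch on genes such as Ccn1, Ccn2, Ankrd1, Amotl2 and Lats2, of which the products of Amotl2 and Lats2 feed back to restrain YAP. In the early mouse embryo the same switch separates trophectoderm, where YAP and TEAD4 are active, from the inner cell mass, the source of embryonic stem cells. RNA levels do not show the phosphorylation or location of YAP and TAZ protein.

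Values are FPKM as deposited, which are per length, so levels of different genes can be set side by side. Changes are differences in log2(FPKM + 1) between a knockdown and its own control, a scale that understates the change of low genes. They were tested with limma on all genes averaging at least 1 FPKM over the 4 libraries, and genes with a Benjamini-Hochberg adjusted p under 0.05 were called changed. The targeted transcripts followed the labels. Cct7 was 14.4 and 17.8 FPKM in Cct7 KD and 269 and 280 FPKM in Cct7 KD Ctr, and Cct5 was 70.8 and 73.4 FPKM in Cct5 KD and 368 and 367 FPKM in Cct5 KD Ctr. Depth estimated from the smallest steps of the values was 20.81 M and 18.85 M fragments in Cct7 KD and 22.3 M and 23.37 M in Cct7 KD Ctr. It was 54.74 M and 21.21 M in Cct5 KD Ctr, and no depth could be accepted for Cct5 KD. Summed FPKM was 744177 to 745912 in Cct5 KD and 495553 to 496684 in Cct5 KD Ctr, so changes are also given after median-of-ratios scaling, which lowered the change of the median gene by 0.23 in Cct7 KD and by 0.75 in Cct5 KD on the log2 scale. Hprt, a purine salvage gene, was 0.781 to 1.44 FPKM in the 4 knockdown libraries and 159 to 163 FPKM in the 4 control libraries, so other differences between these lines cannot be told apart from the hairpin.

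The Cct5 KD values are not independent of the Cct7 KD values. In all but 15 of the 19896 genes, the value in a Cct5 KD library was 1.125 times that in the Cct7 KD library with the same number, plus an amount of at least 0, called the remainder here. The sources used here do not say why. By the same smallest steps a depth was accepted for the remainder, 55.92 M and 52.73 M fragments. Whole multiples of 1 fragment made up 99.02% and 99.14% of its low values, against 68.75% and 43.13% in Cct5 KD. Over the genes that follow the relation the remainder summed to 214123 and 213575 FPKM, against 745912 and 744177 FPKM over all genes in Cct5 KD. What the remainder stands for was not tested. All 10 genes described here follow the relation. Cct5 itself is among the 15 that do not, at 280 and 271 FPKM in Cct7 KD and 70.8 and 73.4 FPKM in Cct5 KD. The Cct5 KD values are therefore given with their remainder, which was set against Cct5 KD Ctr after median-of-ratios scaling, and they add no second experiment to the Cct7 KD values. No test was made of the difference between the 2 knockdowns.

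The promoters of these genes share a short motif. RefSeq start sites (build GRCm38.p6, the assembly also called mm10) were available for 7 of the 10 genes and gave 9 windows of 300 bases, from 250 bases before the start to 50 bases from it. Ccn2, Tead1 and Tead4 had no entry. GGAATG, the core letters bound by TEAD factors, was searched on both strands, so that CATTCC marks a match on the other strand. All 7 genes had a match in at least 1 window, 8 of the 9 windows in all, against 14.7% of the 32841 windows of the same length from all genes. The AP-1 motif TGANTCA, on both strands, was in 7.81% of all windows and the CArG box, the site of serum response factor, in 1.63%; 0 of the 7 genes had either. A match describes letters and is not evidence of binding. The stretches before the start site are shown for Ccn1, Amotl2 and Ankrd1, textbook YAP targets whose transcripts were higher in the knockdowns. Ankrd1 stayed under 1 FPKM in all libraries. The stretches run 5′ to 3′ on the strand of the gene, with the match in capitals. They lie at chr3:145649986-145650235 (minus strand) for Ccn1, chr9:102717554-102717803 (plus strand) for Amotl2 and chr19:36119845-36120094 (minus strand) for Ankrd1.
Ccn1: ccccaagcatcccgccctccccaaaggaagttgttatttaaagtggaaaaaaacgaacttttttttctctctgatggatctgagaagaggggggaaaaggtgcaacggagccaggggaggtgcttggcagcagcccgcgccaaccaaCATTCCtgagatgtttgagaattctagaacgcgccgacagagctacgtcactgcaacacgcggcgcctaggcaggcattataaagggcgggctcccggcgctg
Amotl2: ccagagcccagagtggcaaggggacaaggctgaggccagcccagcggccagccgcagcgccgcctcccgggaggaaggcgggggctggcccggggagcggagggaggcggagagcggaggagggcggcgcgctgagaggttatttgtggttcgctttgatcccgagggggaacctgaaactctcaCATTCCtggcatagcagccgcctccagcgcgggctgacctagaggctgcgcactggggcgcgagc
Ankrd1: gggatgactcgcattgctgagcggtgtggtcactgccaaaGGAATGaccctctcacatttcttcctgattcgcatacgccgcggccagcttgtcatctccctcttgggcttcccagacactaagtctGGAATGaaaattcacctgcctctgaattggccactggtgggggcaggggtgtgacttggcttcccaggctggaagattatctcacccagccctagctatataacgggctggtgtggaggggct
Counted from the first transcribed base as 1, the match began at -103 in Ccn1 and -65 in Amotl2, and Ankrd1 had matches at -210 and -123.

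In the other 4 genes with a window the match is shown with 12 bases on each side, to set its neighbours side by side. Ajuba had matches at -186 (chr14:54577830-54577859) and -164 (chr14:54577808-54577837). Lats2 had its match at 5, within the transcribed part of its upstream start (chr14:57746102-57746131), and its other window had none. Yap1 had a match at -141 (chr9:8004720-8004749), and both Wwtr1 windows held the same match, at -136 and -170 from their 2 starts (chr3:57576029-57576058). All of these genes lie on the minus strand.
Ajuba -186: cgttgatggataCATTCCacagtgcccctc
Ajuba -164: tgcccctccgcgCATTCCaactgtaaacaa
Lats2: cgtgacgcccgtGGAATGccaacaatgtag
Yap1: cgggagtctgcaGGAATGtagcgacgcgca
Wwtr1: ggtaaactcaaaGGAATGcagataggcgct
The match was thus found in genes with large changes and also in Yap1, whose RNA did not pass the test in Cct7 KD as deposited.

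**Figure D1:**
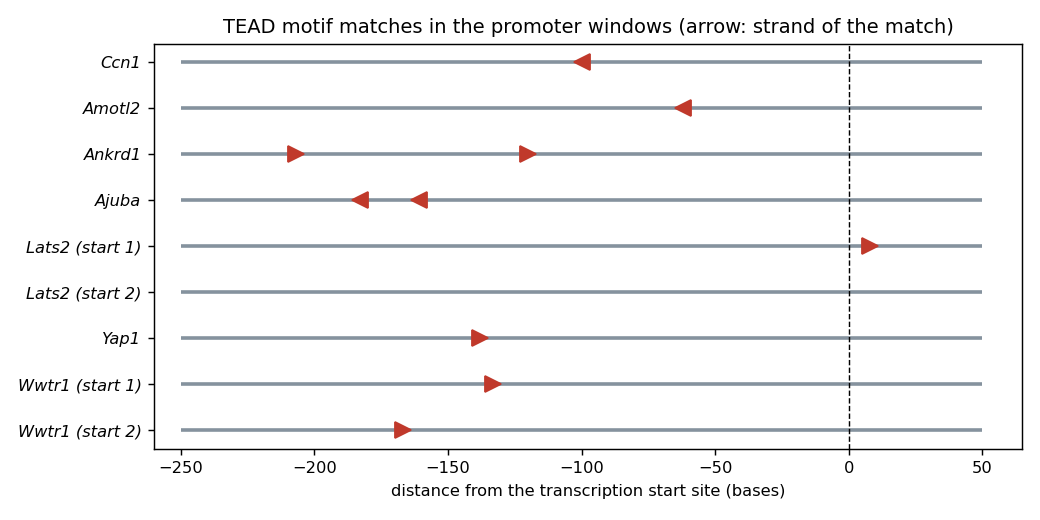
Matches to the TEAD motif in the promoter windows, by distance in bases from the transcription start site (dashed line). Each grey line is a window, each triangle a match, pointing right where it is on the strand of the gene and left where it is on the other; matches lie between -210 and 5.

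In Cct7 KD the targets Ccn1, Ccn2 and Amotl2 were far higher, and the genes that encode the machinery changed less. Ccn1 and Ccn2 were 10.3-fold and 11.6-fold higher and Amotl2 was 5.29-fold higher than in Cct7 KD Ctr. Wwtr1, Tead1 and Tead4 rose close to 2-fold, at 1.98-fold, 1.98-fold and 2.18-fold, Ajuba rose 1.63-fold, and Yap1 did not pass the test. Of the 8 genes that could be tested, 7 were higher and 0 lower, in a comparison in which 81.4% of all 13588 genes tested changed, 49.3% higher and 32.0% lower. All 8 had both Cct7 KD libraries above both controls, as had 54.1% of all genes tested. At a fold of at least 2 on the log2 scale, 3 of 8 were higher, against 13.5% of all genes. The median of the 8 was 0.95 on the log2 scale, and that of all genes tested 0.15. The genes and lists were chosen with earlier results of these data known. Shares of all genes, here and below, therefore describe them and do not test them as sets. Ankrd1 and Lats2 averaged under 1 FPKM and were not in that test. Libraries are bulk RNA, so a change in the share of cells with a transcript and a change in RNA per cell cannot be told apart.

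Ccn1 (ENSMUSG00000028195, GENCODE position on GRCm38 chr3:145646976-145649981) encodes CYR61, a secreted matricellular protein and, with Ccn2, a widely used reporter of YAP activity. Its level was 33.1 and 33.7 FPKM in Cct7 KD, against 3.19 and 3.27 FPKM in Cct7 KD Ctr. Both knockdown libraries stood far above both controls, and replicates differed by less than 1 FPKM. The difference was 3.02 on the log2 scale (SE 0.0417, limma adjusted p = 1.1e-06), the 54th largest rise of 13588 genes tested, and 2.80 after median-of-ratios scaling. About 1389 and 1283 fragments lay behind the knockdown values and 144 and 154 behind the controls, by the annotated exon length. In Cct5 KD the level was 45.3 and 46.0 FPKM, against 3.41 and 3.48 FPKM in Cct5 KD Ctr. The remainder held 8.07 and 8.13 FPKM, 17.7% of the Cct5 KD level. After median-of-ratios scaling the remainder averaged 13.0 ± 0.0211 FPKM and Cct5 KD Ctr 2.13 ± 0.0285 FPKM (SD, n = 2 each).

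Ccn2 (ENSMUSG00000019997, chr10:24595442-24598683) encodes CTGF, the connective tissue growth factor, also secreted. It was 43.0 and 46.3 FPKM in Cct7 KD, against 3.99 and 3.70 FPKM in Cct7 KD Ctr. The groups did not overlap, and at 3.23 on the log2 scale (SE 0.0551, limma adjusted p = 1.4e-06) this was the 33rd largest rise of all genes tested. Median-of-ratios scaling left 3.01. In Cct5 KD it was 52.4 and 56.6 FPKM, against 4.03 and 4.67 FPKM in Cct5 KD Ctr. The remainder held 7.95% of the Cct5 KD level and was higher than the control by 1.11 on the log2 scale after scaling (limma adjusted p = 1.9e-05). Exons of Ccn2 overlap Gm15270 on the other strand; the libraries keep the strand, and whether the counting used it is not given.

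Ankrd1 (ENSMUSG00000024803, chr19:36111961-36120099) encodes CARP, a muscle ankyrin-repeat protein and nuclear cofactor that is a TEAD target. It was barely detected, at 0.667 and 0.655 FPKM in Cct7 KD, and was listed at 0.0443 and 0 FPKM in Cct7 KD Ctr. These are about 40 and 36 fragments in Cct7 KD and about 2.9 and 0 in Cct7 KD Ctr. In Cct5 KD it was 0.777 and 0.747 FPKM, against 0.163 and 0.0700 FPKM in Cct5 KD Ctr. Both knockdowns stood above their controls although the gene is low, and the remainder held only 2.35% of the Cct5 KD level. A fit without the filter gave 0.70 on the log2 scale in Cct7 KD (limma adjusted p = 0.00025) and 0.66 in Cct5 KD (limma adjusted p = 0.00041), where 43.6% and 66.3% of all genes were higher. With median-of-ratios scaling as well, a fit chosen after seeing the data, the changes were 0.65 in Cct7 KD and 0.44 in Cct5 KD. The scaled remainder lay below both controls, averaging 0.0288 against 0.0719 FPKM, and missed the threshold (-0.06 on the log2 scale, limma adjusted p = 0.21).

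**Figure D2:**
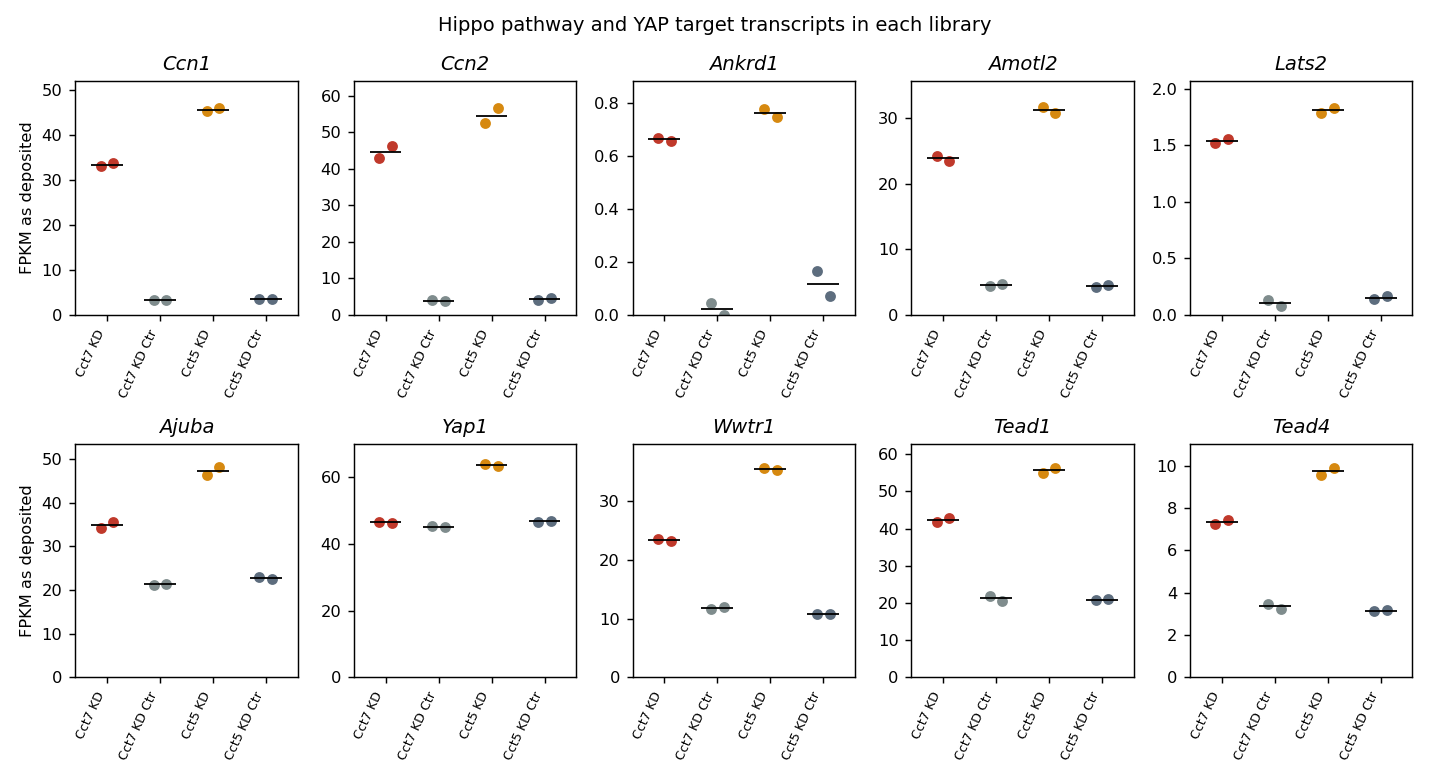
FPKM as deposited for each of the 10 genes, with 1 point for each library and a line at the mean of the 2 libraries of a group; the vertical axes start at 0 and differ between genes. Ccn1, Ccn2, Ankrd1, Amotl2 and Lats2 lay near the floor of their panels in all 4 control libraries, while Yap1 was 45.0 to 47.0 FPKM in the controls and 46.2 to 46.7 FPKM in Cct7 KD.

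Among the feedback inhibitors, Amotl2 and Lats2 were both higher in the knockdowns. Amotl2 (ENSMUSG00000032531, chr9:102716672-102733418) encodes an angiomotin, a junction protein that holds YAP in the cytoplasm and activates LATS kinases. Its level was 24.3 and 23.5 FPKM in Cct7 KD, against 4.36 and 4.67 FPKM in Cct7 KD Ctr, a difference of 2.17 on the log2 scale (SE 0.0497, limma adjusted p = 2.6e-06) and of 1.95 after scaling. The groups did not overlap. In Cct5 KD it was 31.7 and 30.8 FPKM, against 4.27 and 4.46 FPKM in Cct5 KD Ctr, with 14.0% of the Cct5 KD level in the remainder.

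Lats2 (ENSMUSG00000021959, chr14:57689662-57758388) encodes a LATS kinase and is itself induced by YAP. It was 1.52 and 1.56 FPKM in Cct7 KD and 0.129 and 0.0744 FPKM in Cct7 KD Ctr, 15.1-fold higher on averages of 1.54 ± 0.0285 and 0.102 ± 0.0388 FPKM (SD, n = 2 each). About 221 and 205 fragments stood against 20 and 12. In Cct5 KD it was 1.79 and 1.83 FPKM, against 0.134 and 0.163 FPKM in Cct5 KD Ctr. Without the filter on low values the differences were 1.21 (limma adjusted p = 8.3e-05) in Cct7 KD and 1.29 (limma adjusted p = 2.8e-05) in Cct5 KD on the log2 scale, and 1.12 and 0.97 with median-of-ratios scaling as well. The remainder held 4.30% of the Cct5 KD level and missed the threshold against the control, at 0.04 on the log2 scale (limma adjusted p = 0.23, in a fit without the filter that was chosen after seeing the data). Exons of Lats2 overlap Gm49361 on the same strand, so reads of the pair may be shared.

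Ajuba (ENSMUSG00000022178, chr14:54567472-54577558) encodes a LIM-domain protein that binds LATS kinases and lowers their activity. It was 34.1 and 35.6 FPKM in Cct7 KD, against 21.2 and 21.4 FPKM in Cct7 KD Ctr, higher by 0.68 on the log2 scale (SE 0.0347, limma adjusted p = 2.2e-05) and by 0.44 after scaling. In Cct5 KD it was 46.3 and 48.2 FPKM, against 22.9 and 22.5 FPKM in Cct5 KD Ctr, higher by 1.03 as deposited, by 0.22 after scaling, and lower by 0.11 in the remainder (limma adjusted p = 0.019). Its direction in Cct5 KD thus depended on which portion of the values was used.

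The coactivator pair shifted towards Wwtr1, which encodes TAZ. Yap1 (ENSMUSG00000053110, chr9:7931999-8004596) was 46.7 and 46.2 FPKM in Cct7 KD, against 45.3 and 45.0 FPKM in Cct7 KD Ctr. That is a difference of 0.04 on the log2 scale that missed the threshold as deposited (SE 0.0265, limma adjusted p = 0.20), was 0.10 and passed after scaling to a common FPKM total, and was -0.21 and passed after median-of-ratios scaling (limma adjusted p = 0.001). Wwtr1 (ENSMUSG00000027803, chr3:57455649-57575910) was 23.5 and 23.3 FPKM in Cct7 KD, against 11.6 and 11.9 FPKM in Cct7 KD Ctr, higher by 0.93 (SE 0.0355, limma adjusted p = 8.8e-06) and by 0.69 after scaling. A share within a library does not depend on its scaling. Wwtr1 made up 33.4% and 33.5% of the summed FPKM of the pair in Cct7 KD, against 20.4% and 20.9% in Cct7 KD Ctr. Exons of Yap1 overlap Gm20416 on the other strand.

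In Cct5 KD, Wwtr1 was 35.6 and 35.3 FPKM, against 10.8 and 10.8 FPKM in Cct5 KD Ctr, and it kept its direction in each portion of the values: 1.63 on the log2 scale as deposited, 0.84 after scaling and 1.03 in the remainder. Yap1 was 63.9 and 63.5 FPKM in Cct5 KD, against 46.5 and 47.0 FPKM in Cct5 KD Ctr, higher by 0.44 as deposited but lower by 0.37 after median-of-ratios scaling, by 0.14 after scaling to a common total, and by 0.63 in the remainder. Wwtr1 held 35.8% and 35.7% of the pair in Cct5 KD and 44.8% and 44.2% in the remainder, against 18.9% and 18.6% in Cct5 KD Ctr.

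The DNA-binding partners also changed in make-up. Tead1 (ENSMUSG00000055320, chr7:112679318-112906807), a widely expressed TEAD factor, was 41.7 and 42.8 FPKM in Cct7 KD, against 22.0 and 20.6 FPKM in Cct7 KD Ctr, higher by 0.96 on the log2 scale (SE 0.0424, limma adjusted p = 1.4e-05) and by 0.71 after scaling. Tead4 (ENSMUSG00000030353, chr6:128224288-128300823), the TEAD factor needed for trophectoderm, was 7.26 and 7.44 FPKM in Cct7 KD, against 3.49 and 3.25 FPKM in Cct7 KD Ctr, higher by 0.93 (SE 0.0606, limma adjusted p = 5e-05) and by 0.73 after scaling. For both genes the groups were far apart relative to the spread of replicates. Tead2, the most abundant TEAD transcript of the control cells, fell by 0.19 on the log2 scale in Cct7 KD and by 0.43 after scaling. Tead1 made up 47.0% and 47.6% of the summed FPKM of the 4 TEAD genes in Cct7 KD, against 32.6% and 30.3% in Cct7 KD Ctr. Tead2 made up 41.4% and 41.3% in Cct7 KD, against 60.8% and 63.7% in Cct7 KD Ctr.

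In Cct5 KD, Tead1 was 54.9 and 56.4 FPKM, against 20.7 and 21.1 FPKM in Cct5 KD Ctr. Tead4 was 9.58 and 9.89 FPKM in Cct5 KD, against 3.12 and 3.19 FPKM in Cct5 KD Ctr. As deposited both changed by 1.37 on the log2 scale, and after median-of-ratios scaling Tead1 by 0.57 and Tead4 by 0.67. In the remainder Tead1 differed by 0.02 and missed the threshold (limma adjusted p = 0.67) and Tead4 was higher by 0.18 (limma adjusted p = 0.020). Tead1 made up 41.6% and 42.0% of summed TEAD FPKM in Cct5 KD and 25.0% and 24.9% in the remainder, against 32.3% and 31.5% in Cct5 KD Ctr. The share of Tead1 was thus above control in Cct5 KD and below it in the remainder, while that of Wwtr1 was above control in both.

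**Figure D3:**
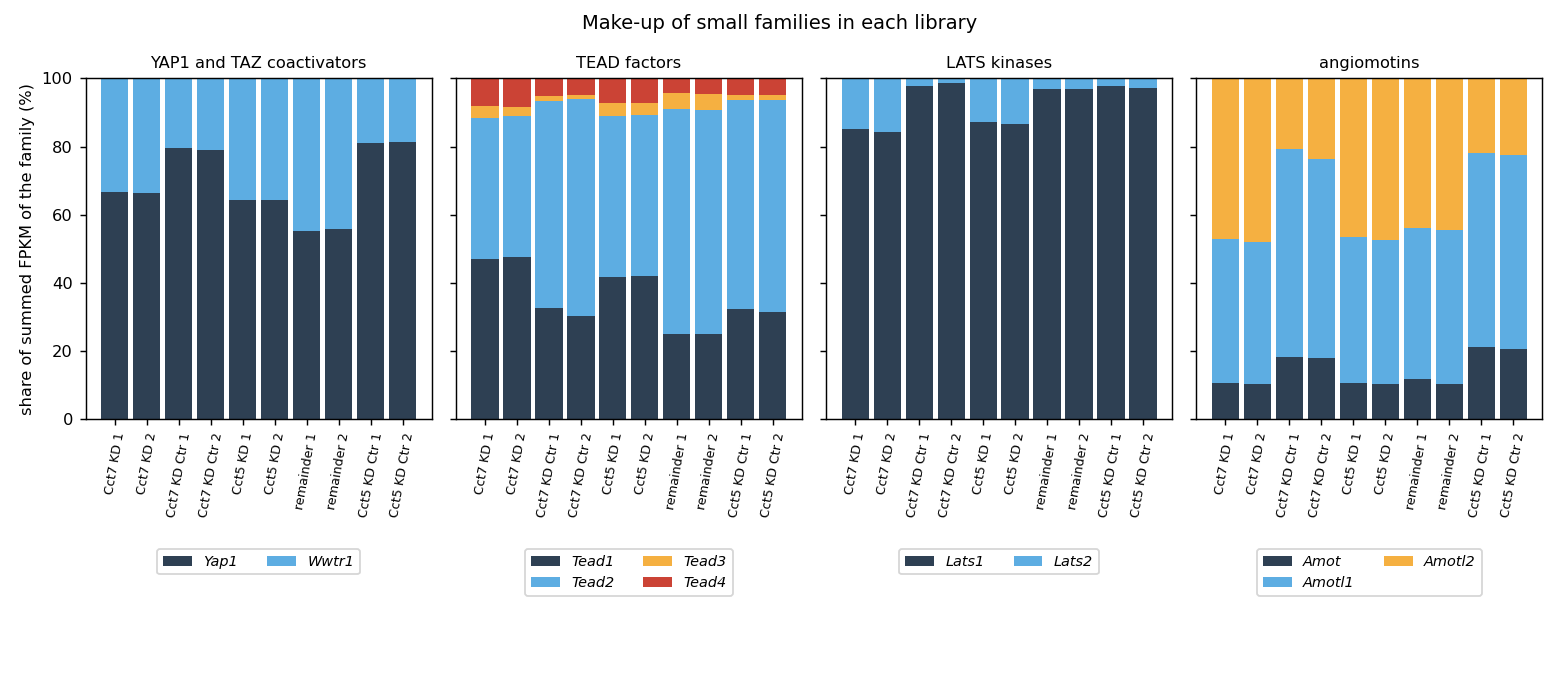
Share (%) of the summed FPKM of 4 small families taken by each gene, with 1 bar for each library; the remainder is the Cct5 KD value less 1.125 times that of Cct7 KD with the same number. Lats2 made up 14.7% and 15.8% of LATS FPKM in Cct7 KD and 2.13% and 1.39% in Cct7 KD Ctr, and Amotl2 47.0% and 48.0% of angiomotin FPKM in Cct7 KD and 20.8% and 23.7% in Cct7 KD Ctr.

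Shares within the inhibitor families differed between groups too. Lats2 took 12.7% and 13.4% of the summed FPKM of both LATS genes in Cct5 KD, against 2.32% and 2.81% in Cct5 KD Ctr, and 3.16% and 2.98% of the remainder. Amotl2 took 46.6% and 47.4% of angiomotin FPKM in Cct5 KD, against 21.9% and 22.6% in Cct5 KD Ctr, and here the remainder had a like share, 44.1% and 44.5%. Ajuba made up 64.8% and 65.6% of its family with Limd1 and Wtip in Cct7 KD, against 59.5% and 60.2% in Cct7 KD Ctr. It made up 62.6% and 63.1% in Cct5 KD, against 61.4% and 60.0% in Cct5 KD Ctr, and 54.0% and 53.1% of the remainder.

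By level, the order of the 10 genes differed between knockdowns and controls. In both control groups Yap1 stood first, followed by Ajuba and Tead1, whose ranges overlapped in Cct7 KD Ctr, and by Wwtr1, and the 5 target and feedback genes lay below them together with Tead4. In Cct7 KD, Ccn2 had moved up to Yap1, with ranges of 43.0 to 46.3 and 46.2 to 46.7 FPKM that overlap. Tead1 followed, then Ajuba, Ccn1, Amotl2 and Wwtr1, each clear of the next. Lats2 and Ankrd1 were the lowest of the 10 in all 4 groups.

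Over the Cct5 KD values, 8 of the 8 genes tested were higher and 0 lower, in a comparison in which 89.3% of all 14179 genes tested changed, 78.0% higher and 11.3% lower, so that this count is near the background. All 8 also had both Cct5 KD libraries above both controls, as had 81.0% of all genes tested. At a fold of at least 2 on the log2 scale, 7 of 8 were higher as deposited, against 31.2% of all genes. After median-of-ratios scaling 3 of 8 reached that fold, and the matching share of all genes was not taken. After median-of-ratios scaling 7 of 8 were higher and Yap1 was lower in each knockdown, where 37.1% of all genes were higher and 44.0% lower in Cct7 KD, and 37.7% higher and 43.7% lower in Cct5 KD. In the remainder 5 were higher (Ccn1, Ccn2, Amotl2, Wwtr1 and Tead4), 2 lower (Ajuba and Yap1) and 1 did not pass (Tead1), against 41.6% of all genes higher and 43.3% lower. The changes of the remainder were 2.16 for Ccn1, 1.11 for Ccn2 and 1.12 for Amotl2 on the log2 scale, all smaller than the scaled Cct5 KD changes of 2.66, 2.62 and 1.84.

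**Figure D4:**
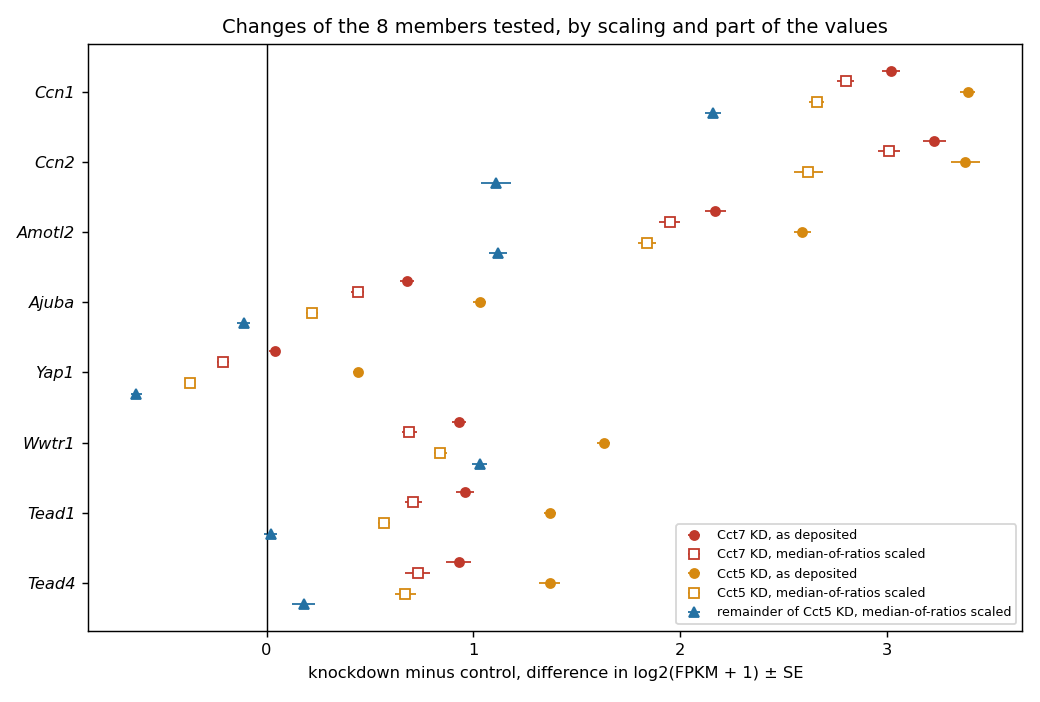
Difference in log2(FPKM + 1) between knockdown and control, with its standard error, for the 8 genes that passed the filter of 1 FPKM; filled circles are the values as deposited, open squares those after median-of-ratios scaling, and triangles the remainder of Cct5 KD after that scaling. Ccn1, Ccn2, Amotl2, Wwtr1 and Tead4 lie right of 0 in all 5 series, Yap1 lies on either side, and Ajuba and Tead1 come near or below 0 in the remainder.

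The upstream kinases and scaffolds held genes that rose and genes that fell. Of 20 genes listed, 17 were tested in Cct7 KD, 12 were higher, 3 lower and 2 did not pass, with a median of 0.24 on the log2 scale, beside 49.3% of all genes higher, 32.0% lower and a median of 0.15. After median-of-ratios scaling 7 were higher, 4 lower and the median was 0.01, beside 37.1% of all genes higher and 44.0% lower. Frmd6, an upstream FERM-domain activator, was 14.4 ± 0.777 FPKM in Cct7 KD and 4.76 ± 0.0410 FPKM in Cct7 KD Ctr (SD, n = 2 each), and Sav1, the scaffold of MST kinases, was 36.0 ± 0.483 FPKM in Cct7 KD and 17.7 ± 0.0790 FPKM in Cct7 KD Ctr. Nf2, which encodes merlin, the membrane-bound activator of LATS, was 20.5 ± 0.445 FPKM in Cct7 KD and 39.0 ± 0.930 FPKM in Cct7 KD Ctr, lower by 0.90 on the log2 scale (limma adjusted p = 9.4e-06). In Cct5 KD 13 of 17 were higher and 2 lower, near the 78.0% and 11.3% of all genes, and after scaling 7 were higher and 8 lower, beside 37.7% and 43.7%. In the remainder Nf2 was lower by 1.04 and Frmd6 higher by 0.65, whereas Sav1 was lower by 0.31.

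Junction and polarity adaptors that bind YAP or LATS were mixed as well, with 10 of 15 higher in Cct7 KD, 4 lower, Pard3 among them, and a median of 0.36, or 0.11 after scaling, beside 49.3% of all genes higher and 32.0% lower as deposited. Patj, a Crumbs-complex scaffold, was 7.82 ± 0.0340 FPKM in Cct7 KD and 2.53 ± 0.213 FPKM in Cct7 KD Ctr. Ptpn14, a phosphatase that binds YAP, was 11.9 ± 0.419 FPKM in Cct7 KD and 6.03 ± 0.316 FPKM in Cct7 KD Ctr, and Dlg1, a polarity scaffold, was 35.9 ± 0.390 FPKM in Cct7 KD and 23.0 ± 0.188 FPKM in Cct7 KD Ctr. In Cct5 KD 12 of 15 were higher and 0 lower, beside 78.0% of all genes higher. After scaling 6 were higher and 4 lower, beside 37.7% and 43.7% of all genes. Of the other TEAD and VGLL genes, Tead3 and Vgll4 rose and Tead2 fell in Cct7 KD. Vgll4, which competes with YAP for TEAD, was 15.4 ± 0.914 FPKM in Cct7 KD and 6.24 ± 0.437 FPKM in Cct7 KD Ctr, and Tead3 was 2.80 ± 0.390 FPKM in Cct7 KD and 0.908 ± 0.111 FPKM in Cct7 KD Ctr.

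A wider list of YAP target genes was taken from general knowledge of signatures in human cell lines. Of 17 genes, 13 were tested in Cct7 KD, 10 were higher, 1 lower (Nuak2) and 2 did not pass (Igfbp3 and Fjx1), with a median of 0.63, or 0.42 after scaling, beside 49.3% of all genes higher and 32.0% lower. At a fold of at least 2 on the log2 scale, 2 of the 13 were higher in Cct7 KD, beside 13.5% of all genes. Nt5e, the ectonucleotidase CD73, was 6.27 ± 0.523 FPKM in Cct7 KD and 0.269 ± 0.0157 FPKM in Cct7 KD Ctr, 23.3-fold higher. Asap1, an Arf GTPase activator, was 17.3 ± 1.54 FPKM in Cct7 KD and 7.56 ± 0.237 FPKM in Cct7 KD Ctr, and Myof, a membrane-repair ferlin, was 18.9 ± 0.0778 FPKM in Cct7 KD and 11.3 ± 0.0647 FPKM in Cct7 KD Ctr. In Cct5 KD 11 of 13 were higher and 0 lower as deposited, where 78.0% of all genes were higher. After scaling 9 were higher and 2 lower, with a median of 0.24, beside 37.7% of all genes higher and 43.7% lower. The remainder had 2 of 9 higher, 6 lower and a median of -0.24 on the log2 scale, beside 41.6% of all genes higher and 43.3% lower. In it Asap1 was lower by 0.24 and Myof by 0.60.

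SRF and AP-1 factors share many targets with YAP. SRF targets, the genes of the actin-driven serum response, were higher in 11 of 13 tested in Cct7 KD, lower in 1 (Srf itself) and not called in 1 (Myl9), with a median of 0.84, or 0.62 after scaling, beside 49.3% of all genes higher as deposited. Tpm4, a tropomyosin, was 184 ± 0.959 FPKM in Cct7 KD and 43.3 ± 1.88 FPKM in Cct7 KD Ctr, and Egr1, an immediate early factor, was 17.4 ± 0.557 FPKM in Cct7 KD and 1.52 ± 0.0656 FPKM in Cct7 KD Ctr. Tpm1 was 1.97-fold higher. Srf was lower by 0.14 on the log2 scale (limma adjusted p = 0.044), a call lost when any of the 4 libraries was left out. AP-1 genes, whose products bind beside TEAD factors at many enhancers, were higher in 5 of 5 tested, with a median of 2.57, or 2.36 after scaling. Jun was 14.6 ± 0.0896 FPKM in Cct7 KD and 2.24 ± 0.124 FPKM in Cct7 KD Ctr, and Junb and Jund were 6.88-fold and 4.37-fold higher in Cct7 KD. In Cct5 KD 12 of 13 SRF targets and 5 of 5 AP-1 genes were higher as deposited, beside 78.0% of all genes. After scaling 9 SRF targets were higher and 3 lower, and all 5 AP-1 genes were higher, beside 37.7% of all genes higher. In the remainder 4 SRF targets were higher and 4 lower of 10, and 3 AP-1 genes were higher and 0 lower of 4. Of all genes 41.6% were higher there and 43.3% lower.

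**Figure D5:**
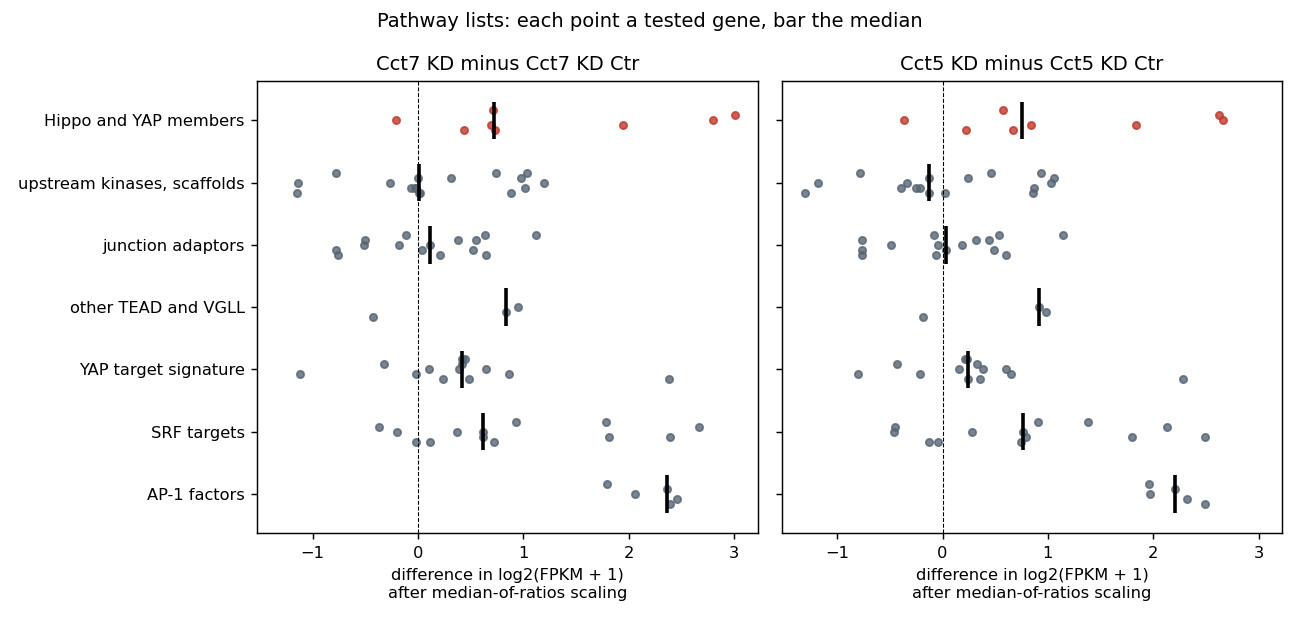
Difference in log2(FPKM + 1) after median-of-ratios scaling for each tested gene of the pathway lists (points) with the median of the list (bar), for Cct7 KD less Cct7 KD Ctr (left) and Cct5 KD less Cct5 KD Ctr (right). The AP-1 genes all lie at 1.79 or above, the upstream kinases and scaffolds spread on both sides of 0, and the 10 genes described here have medians of 0.72 and 0.76 over the 8 tested.

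The labelled cell type was checked against its markers. All 6 stem cell markers were expressed in the controls and fell in Cct7 KD, beside 32.0% of all genes lower. Their median was -1.96 on the log2 scale, with a summed level of 409 to 414 FPKM in Cct7 KD and 1750 to 1791 FPKM in Cct7 KD Ctr. Pou5f1 (Oct4) was 119 ± 0.137 FPKM in Cct7 KD and 452 ± 9.23 FPKM in Cct7 KD Ctr, and Zfp42 (Rex1) was 87.7 ± 0.234 FPKM in Cct7 KD and 583 ± 5.83 FPKM in Cct7 KD Ctr. Nanog fell by 2.11 on the log2 scale. In Cct5 KD 5 of the 6 fell and Klf4 rose, beside 11.3% of all genes lower, and after scaling all 6 fell, beside 43.7%. Of 7 trophectoderm genes linked to TEAD4, 4 were tested in each knockdown, 2 rose and 2 fell. Of all genes, 49.3% were higher and 32.0% lower in Cct7 KD, and 78.0% and 11.3% in Cct5 KD. The keratin genes Krt8 (11.7-fold) and Krt18 (6.29-fold) were higher in Cct7 KD, while Eomes and Tfap2c fell, and Cdx2, Gata3 and Elf5 stayed under 1 FPKM on average. Cdx2, the defining factor, was 0.213 and 0.141 FPKM in Cct7 KD and 0 and 0.0759 FPKM in Cct7 KD Ctr. In the remainder Krt8 and Krt18 were lower by 0.31 and 0.46.

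Fibroblast or feeder markers were mostly higher in Cct7 KD, and primitive endoderm markers were mixed. Of 14 fibroblast or feeder markers, 4 were tested in Cct7 KD. There 3 rose (Col5a1, Pdgfrb and Fbn1) and Thy1 fell, beside 49.3% of all genes higher and 32.0% lower. Tested or not, Col1a1, Col1a2, Col5a1, Col6a1, Postn, Pdgfrb, Fbn1 and Prrx1 had both Cct7 KD libraries above both controls. Thy1 had both below, and 54.1% of all genes tested had both above. The summed level of the list was 22.7 to 23.8 FPKM in Cct7 KD and 13.0 to 13.6 FPKM in Cct7 KD Ctr. Col1a1, a collagen that defines fibroblasts, was 0.820 and 0.804 FPKM in Cct7 KD and 0.649 and 0.608 FPKM in Cct7 KD Ctr. Other markers too low for the test differed more. Col6a1 averaged 1.83 FPKM in Cct7 KD and 0.0964 FPKM in Cct7 KD Ctr, and Col1a2 0.634 and 0.160 FPKM. Postn averaged 0.278 and 0.0271 FPKM, and Prrx1 0.132 and 0.00452 FPKM. Fbn1 was 4.68 ± 0.185 FPKM in Cct7 KD and 0.304 ± 0.0815 FPKM in Cct7 KD Ctr, and Pdgfrb was 5.60 ± 0.299 FPKM in Cct7 KD and 1.45 ± 0.0832 FPKM in Cct7 KD Ctr. In Cct5 KD the list summed to 30.9 to 32.3 FPKM, against 12.9 to 13.5 FPKM in Cct5 KD Ctr, with Col3a1 listed at 0 in both Cct5 KD libraries. Of 11 primitive endoderm markers, 7 were tested in Cct7 KD. There 5 rose (Gata6, Pdgfra, Dab2, Col4a1 and Col4a2) and 2 fell (Lama1 and Lamb1), beside 49.3% of all genes higher and 32.0% lower. After scaling 3 rose, 2 fell and 2 did not pass, beside 37.1% higher and 44.0% lower. Gata6 was 1.77 and 2.42 FPKM in Cct7 KD and 0.678 and 0.756 FPKM in Cct7 KD Ctr. The summed level was 63.4 to 65.5 FPKM in Cct7 KD and 61.4 to 62.4 FPKM in Cct7 KD Ctr. In Cct5 KD all 8 tested rose as deposited, beside 78.0% of all genes, and 5 rose and 3 fell after scaling, beside 37.7% and 43.7%. The list summed to 90.4 to 92.6 FPKM, against 57.2 FPKM in each Cct5 KD Ctr library. The part of such cells in the levels of Ccn1, Ccn2 and the other targets was not tested.

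The genes whose change over the 8 libraries was most like that of Ccn1 and Ccn2 were sought among 11869 genes tested in both comparisons. These leave out unnamed gene models (Gm followed by digits, or ending in Rik), names with -ps and IDs without a symbol. Likeness was the root mean square difference of log2(FPKM + 1), each library taken relative to the mean of its own control group; since Cct5 KD holds a multiple of Cct7 KD, the 8 libraries are not 8 independent points. Nearest to Ccn1 were Asz1 at 0.0388, Tuba3b at 0.0400, Dsc2 at 0.0625, Parva at 0.0701 and Atf3 at 0.0820. Asz1, a germ cell protein, was 23.3 ± 0.154 FPKM in Cct7 KD and 1.97 ± 0.0582 FPKM in Cct7 KD Ctr, and Tuba3b, an alpha-tubulin, was 38.4 ± 0.605 FPKM in Cct7 KD and 3.78 ± 0.146 FPKM in Cct7 KD Ctr. Dsc2 encodes a desmosomal cadherin, Parva a focal adhesion protein and Atf3 a stress-induced factor. Nearest to Ccn2 were Sycp1 at 0.0756, Plaur at 0.0878, Tuba3b at 0.104, Asz1 at 0.112 and Atf3 at 0.116. Sycp1 encodes a meiotic chromosome protein and Plaur the urokinase receptor.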

How the data were processed

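Poly(A) RNA of 8 libraries, 2 in each of 4 groups, was read as paired ends from libraries that mark the second strand with dUTP, per the labels' protocols. Values are FPKM deposited by the authors, with 20909 genes in the table of Cct7 KD and its control and 21055 in that of Cct5 KD and its control. HTSeq and mm10 are named in the submitters' processing notes; aligner, annotation, gene lengths and strand setting: not given in the sources used here. Every value column was assigned to a sample by its name, so 0 value columns were left unused.

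IDs listed more than 1 time (6 in the Cct7 table and 8 in the Cct5 table) were left out. Symbols and positions came from GENCODE on GRCm38, in which 56 IDs had no symbol. Since the tables hold FPKM and not counts, the count model considered at first was not used. Genes averaging 1 FPKM or more over the 4 libraries of a comparison entered limma 3.58.1 in R 4.3.3, on log2(FPKM + 1) and with a mean trend in eBayes, and p-values were adjusted over all genes tested by the Benjamini-Hochberg method with a threshold of 0.05. The test was checked on simulated data. In those data few genes were changed and no library was shifted as a whole, unlike here. Of the 10 genes, 8 passed the filter in each comparison. Depth was taken from genes that have 1 annotated transcript, whose low values are whole multiples of 1 fragment within 0.05 in at least 95% of cases; on a 1 kb transcript 1 fragment is worth 0.01827 FPKM in the deepest and 0.05305 FPKM in the shallowest library with a depth. Chi-square per degree of freedom between the fragments of replicates was 1.282 in Cct7 KD, 3.654 in Cct7 KD Ctr and 1.805 in Cct5 KD Ctr, so none of these pairs was an identical copy. The Cct5 KD pair, without a depth, was not assessed. Whether a pair is 2 runs of 1 library was not tested. Fragment numbers beside a gene use its summed exon length and cover counting only.

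The remainder is the Cct5 KD value less 1.125 times that of Cct7 KD with the same number, found as the most common ratio, which 449 genes in replicate 1 and 427 in replicate 2 met at a relative tolerance of 1e-06. The genes and lists were chosen with earlier results of these data known. From each list the 3 genes with the smallest p in Cct7 KD were named, with any gene called in opposite directions in the 2 knockdowns. Exceptions to a list's direction and further markers of other cell types were named after their values were seen. Ptpn14, Fjx1 and Fos are each in 2 lists, and Vgll2, Foxf2, Dcn, Lum, S100a4 and Twist2 were not analysed here. Promoter windows were those of RefSeq. Alternatives were median-of-ratios scaling, a common FPKM total, a minimum fold of 2, a pseudocount of 0.1, no filter, each library left out, a replicate block, 1 fit of all 8 libraries, and the remainder.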

Additional observations from a re-analysis of the deposited data

Results flagged for a closer look

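Among the genes named, 6 were called in opposite directions in the 2 knockdowns as deposited, and the difference between the knockdowns was not tested. On the log2 scale Tead2, a TEAD factor, changed by -0.19 in Cct7 KD and 0.63 in Cct5 KD, Pard3, a polarity scaffold, by -0.28 and 0.28, and Srf by -0.14 and 0.29. Lamb1 and Lama1, laminin genes of the endoderm list, changed by -0.32 and -0.43 in Cct7 KD and by 0.33 and 0.15 in Cct5 KD. Klf4, a pluripotency factor, changed by -0.28 in Cct7 KD and 0.12 in Cct5 KD. After median-of-ratios scaling all 6 were lower in both knockdowns. None of the 10 genes described above was called in opposite directions as deposited.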

How the results depend on the processing

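Asking for a fold of at least 2 on the log2 scale lowered the count of changed genes among the 10 to 3 in Cct7 KD. It lowered that of all genes to 2734 in Cct7 KD and 4724 in Cct5 KD. Leaving out each library in turn gave 7 to 8 changed genes of the 10 in Cct7 KD and 8 to 9 in Cct5 KD, and 10225 to 10781 and 12059 to 12468 changed genes overall. The numbers of the replicates do not pair the libraries by any label, and deviations of same-numbered libraries correlated at -0.0385 in Cct7 KD and its control and at -0.0144 in Cct5 KD and its control. With the replicate block 7 and 8 of the 10 genes and 10968 and 12740 genes overall changed, and no call among the 10 genes was altered; Srf was no longer called in Cct7 KD. Yap1 turned to -0.21 in Cct7 KD after median-of-ratios scaling. In Cct5 KD that scaling turned Yap1 to -0.37, Pard3 to -0.49, Tead2 to -0.19, Srf to -0.45, Lamb1 to -0.48, Lama1 to -0.59 and Klf4 to -0.68, and a common total turned Yap1 to -0.14, Pard3 to -0.27, Srf to -0.23, Lamb1 to -0.24, Lama1 to -0.37 and Klf4 to -0.45. The remainder turned Ajuba to -0.11, Yap1 to -0.63, Sav1 to -0.31, Ptpn14 to -0.03, Pard3 to -0.54, Myof to -0.60, Asap1 to -0.24, Egr1 to -0.24, Srf to -0.51, Krt18 to -0.46, Krt8 to -0.31, Lamb1 to -0.24, Lama1 to -0.25 and Klf4 to -1.06. Beyond what the scaling and the remainder themselves change, the cause was not tested. Ccn1, Ccn2, Amotl2, Wwtr1 and Tead4 kept their direction and their adjusted p under 0.05 in these alternatives. In Cct7 KD, Wwtr1 and Tead4, at 0.93 each, did not reach a fold of 2 on the scale of log2(FPKM + 1). By the ratio of mean FPKM, Tead4 was 2.18-fold higher and Wwtr1 1.98-fold. Ankrd1 rests on about 2.9, 0 and 4.3 fragments in 3 of the 4 control libraries.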
